A study of Mus musculus with 4 samples.

Results

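Genes that carry cells through mitosis were compared between nephron progenitors of the mouse lines Six2TGC and Six2Cre, which both express Cre recombinase fused to GFP. The 57 members were chosen by name for their known roles, with earlier results of these data known. The roles were mitotic entry, the kinetochore, the spindle checkpoint, the anaphase-promoting complex, spindle motors, cytokinesis and chromosome structure. All 57 were found among the 24339 genes of the deposited table, and none was listed at 0 in any library. They were sorted here into 9 role groups. The Six2TGC line carries GFP-Cre on a bacterial artificial chromosome (BAC) transgene. The Six2Cre line (genotype Six2 Cre/+) carries Six2-T2A-GFP-Cre as a heterozygous knock-in at the Six2 gene, so 1 Six2 allele is altered there. In both lines Six2 regulatory sequence drives the fusion, and all cells were GFP-positive mesenchymal nephron progenitors sorted from kidney, with no line free of Cre among the groups. The labels give neither age nor strain background, and the name of the deposited table places the cells at E18. Each line has 2 libraries of polyadenylated RNA, 4 in all, and no label states which animals they come from. Xist, transcribed from the inactive X, was at an FPKM of 0.0107 in Six2TGC replicate 1 and at 75.7, 56.7 and 60.6 in Six2TGC replicate 2 and the Six2Cre libraries. The Y-linked gene Ddx3y was at 12.7 in Six2TGC replicate 1 and at 0 in the others. The Six2TGC libraries thus differ in sex transcripts and do not come from the same animal, while for Six2Cre the spread behind a p-value may be technical.

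Mitosis begins when cyclin-dependent kinase 1 (CDK1), paired with A- and B-type cyclins, is switched on by CDC25 phosphatases. Condensins and topoisomerase II then compact the chromosomes, kinesins build the spindle, and kinetochores attach chromosomes to its microtubules. The checkpoint holds the anaphase-promoting complex (APC/C) back until all are attached, after which cyclin B and securin are degraded and the cell divides. Transcripts of most of these genes rise in G2 and M phase. Nephron progenitors of the fetal kidney divide to renew themselves and leave that state as they turn into epithelium.

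Mitotic genes were lower in Six2TGC than in Six2Cre as a group. Of 57 tested, 35 were lower, 0 were higher and 22 had no call (limma on log2(FPKM + 1), Benjamini-Hochberg adjusted p under 0.05). That is 61.4% of the members, where 13.5% of all 11917 tested genes were lower and 10.8% higher in Six2TGC (24.3% in either direction). Both Six2TGC libraries lay below both Six2Cre libraries for 54 of 57 members, or 94.7%, against 36.4% of all tested genes. The exceptions, whose lines overlapped, were Bub3, Fzr1 and Kif18a. The changes were modest. The ratio of mean FPKM, Six2Cre over Six2TGC, ranged from 1.00 (Fzr1) to 1.70 (Ncapd2) with a median of 1.31, and 5 members reached 1.5. The fitted log2 fold change was below 0 for 56 of 57 members, against 54.3% of tested genes. The median log2 fold change was -0.38, beside -0.03 over all tested genes and -0.03 over the 9643 tested genes within the level range of the members, of which 12.9% were lower. In this bulk RNA, fewer cells of a type or phase and less RNA per cell cannot be told apart. Summed over the 57 genes, the members reached an FPKM of 1513 and 1613 for Six2TGC replicates 1 and 2, beside 2009 and 2017 for Six2Cre. These sums are 0.313%, 0.335%, 0.365% and 0.375% of all FPKM in the library.

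**Figure D1:**
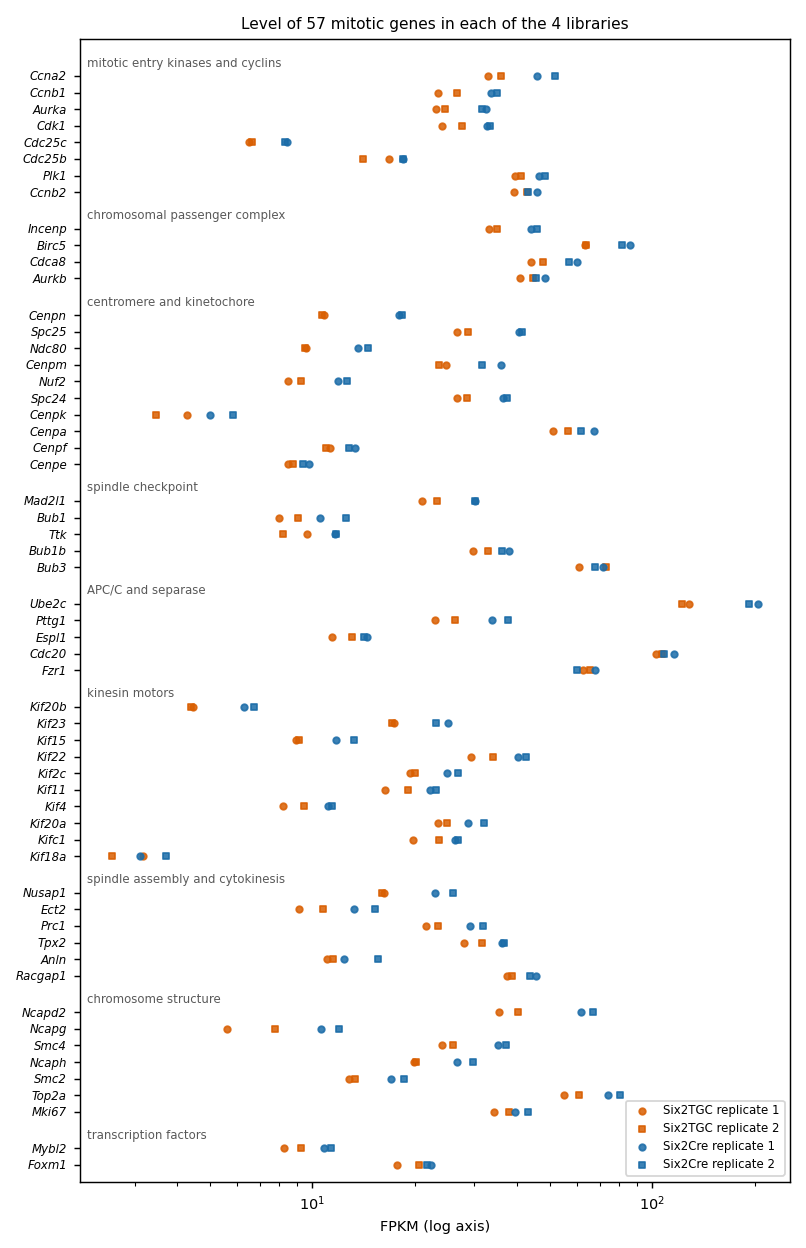
FPKM (log axis) of the 57 mitotic genes in each of the 4 libraries, Six2TGC in orange and Six2Cre in blue, with replicate 1 as circles and replicate 2 as squares, grouped by role. The blue points lie to the right of both orange points for 54 genes, and the colours overlap for Bub3, Fzr1 and Kif18a.

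Levels spread widely among the members. Mean FPKM over the 4 libraries ran from 3.14 for Kif18a to 162 for Ube2c, with a median of 26.5. The replicates lay close together. The ratio of the higher to the lower replicate had a median of 1.09 in Six2TGC and 1.06 in Six2Cre, and its largest values were 1.38 and 1.26. Replicate 2 was above replicate 1 for 45 members in Six2TGC and for 37 in Six2Cre.

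Promoters of this class of genes often hold a cell cycle homology region (CHR), together with CCAAT boxes that bind NF-Y. In human cells the CHR is bound by the MuvB core, as part of the repressive DREAM complex in resting cells and with B-MYB and FOXM1 in cycling cells. RefSeq promoter windows (GRCm38.p6, the assembly of mm10) of 250 bases before and 50 after the start were matched for 48 of the 57 members, with 53 windows. The others were Foxm1, Tpx2, Incenp, Ccna2, Aurkb, Smc4, Cdc25c, Kif20a and Spc24. The letters TTTGAA or TTCGAA of the CHR, on either strand, occurred for 36 of 48 members (75%), against 15.6% of 9014 tested genes with a window and 21.7% of all 27025 genes with one. CCAAT on either strand occurred for 35 members (72.9%), against 43.4% of tested genes and 41.1% of all genes. Both occurred for 31 members (64.6%), against 6.63% of tested genes and 8.61% of all genes. The E2F letters TTTCCCGC, TTTCGCGC, TTTGCCGC or TTTGGCGC, on either strand, occurred for 6 members (12.5%), against 5% and 2.6%. A CHR match and a CCAAT match can share an end base. The median log2 fold change was -0.37 for the 36 members with the CHR letters and -0.41 for the 12 without them. Among all tested genes with the CHR letters, 14.4% were lower in Six2TGC. A match of so few letters is a description of the sequence and not a bound site.

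The windows below show this arrangement in 4 lower members of the entry, APC/C and kinetochore groups whose CHR letters lie before the RefSeq start. Each is written 5′ to 3′ on the strand of the gene, with the CHR and CCAAT letters (or their reverse complements TTCAAA and ATTGG) in capitals, and was ended early where needed to hold at most 20 bases of an annotated exon. Cenpn is at chr8:116921656-116921739 (plus strand), Ube2c at chr2:164769825-164769917 (plus), Cenpm at chr15:82244391-82244494 (minus) and Cdk1 at chr10:69352919-69353002 (minus). The most downstream CHR begins 9, 29, 83 and 15 bases before the RefSeq start in this order, and Cdk1 holds 2 of them. The Cenpm gene as deposited spans chr15:82233776-82244747, so the Cenpm window lies inside it.
Cenpn: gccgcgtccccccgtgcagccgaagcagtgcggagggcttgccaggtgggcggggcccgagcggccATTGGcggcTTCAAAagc
Ube2c: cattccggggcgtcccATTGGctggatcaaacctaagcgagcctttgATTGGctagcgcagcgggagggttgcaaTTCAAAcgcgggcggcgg
Cenpm: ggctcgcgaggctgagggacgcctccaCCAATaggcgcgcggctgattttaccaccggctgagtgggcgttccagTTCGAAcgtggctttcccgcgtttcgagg
Cdk1: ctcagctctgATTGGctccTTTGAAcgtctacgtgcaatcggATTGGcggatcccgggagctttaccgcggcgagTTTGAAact

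Among the kinases and cyclins of mitotic entry, 4 of 8 were lower in Six2TGC and 4 had no call. Beside this and each role count below, 13.5% of all tested genes were lower. Role groups hold 2 to 10 genes, and differences between them were not tested. Ccna2, the A-type cyclin of S and G2 phase, was measured at an FPKM of 32.9 and 35.9 in the BAC line and at 45.8 and 51.9 in the knock-in line. The lines did not overlap, and the mean was 1.42-fold lower in Six2TGC, at 34.4 ± 2.08 against 48.8 ± 4.27 (means ± SD, n = 2 each). The log2 fold change was -0.49 with an SE of 0.0905 (limma adjusted p = 8.19e-03). Ccnb1, the B-type cyclin that CDK1 needs for entry, stood at 23.5 and 26.6 against 33.6 and 34.9 (-0.44, limma adjusted p = 0.0121). Aurka, the kinase of the spindle poles, stood at 23.1 and 24.6 against 32.5 and 31.7 (-0.41, limma adjusted p = 9.56e-03). Cdk1 itself was lower too, at 24.1 and 27.6 against 32.6 and 33.3 (-0.34, limma adjusted p = 0.0315). Plk1, the kinase that acts from entry to cytokinesis and the member of this group with the highest level, had no call. It stood at 39.3 and 41.1 against 46.3 and 48.4, with a 95% interval of the log2 fold change from -0.40 to -0.05. Ccnb2, the other B-type cyclin, had no call, at 39.2 and 42.9 against 45.8 and 43.1 (interval -0.31 to 0.08). The phosphatase genes Cdc25b (-0.25) and Cdc25c (-0.30) had none either, and all 8 genes had both Six2TGC libraries below both Six2Cre libraries. Reads of Ccna2 and of Exosc9, on the other strand, share exonic positions, and Exosc9 was lower too, at 7.79 and 8.06 against 13.2 and 18.5. Each of the 4 calls was lost in at least 1 fit that left out a library, at log2 fold changes between -0.47 and -0.25.

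The chromosomal passenger complex, which corrects wrong attachments and starts cytokinesis, had 3 of 4 genes lower. Birc5, which encodes survivin and had the highest level of the group, stood at 63.4 and 63.9 in the BAC line and at 85.8 and 81.5 in the knock-in line. It was 1.31-fold lower in Six2TGC (SE 0.0724 on a log2 fold change of -0.39, limma adjusted p = 8.53e-03). The scaffold gene Incenp stood at 33.0 and 34.9 against 43.9 and 45.8 (-0.39, limma adjusted p = 0.0105), and Cdca8, which encodes borealin, at 43.9 and 47.9 against 60.0 and 56.7 (-0.34, limma adjusted p = 0.0212). The kinase gene of the complex, Aurkb, had no call at 40.7 and 44.5 against 48.3 and 45.5, with an interval from -0.33 to 0.05. All 3 calls were lost without Six2Cre replicate 1 and without Six2Cre replicate 2, and that of Cdca8 also without Six2TGC replicate 1, at log2 fold changes between -0.43 and -0.28.

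At the centromere and kinetochore, 6 of 10 genes were lower and 4 had no call. Cenpn, which encodes a reader of the centromeric nucleosome, showed the largest change here. It stood at 10.8 and 10.7 in the BAC line and at 17.95 and 18.4 in the knock-in line, a 1.69-fold lower mean of 10.8 ± 0.0639 against 18.2 ± 0.296 (means ± SD, n = 2 each). The log2 fold change was -0.70 with an SE of 0.0877 (limma adjusted p = 1.59e-03). All 4 genes of the NDC80 complex, the main microtubule coupler of the kinetochore, were lower. Spc25 stood at 26.7 and 28.8 against 40.7 and 41.5 (-0.55, limma adjusted p = 2.87e-03) and Ndc80 at 9.55 and 9.52 against 13.7 and 14.5 (-0.52, limma adjusted p = 7.74e-03). Nuf2 (-0.43) and Spc24 (-0.41) differed by similar amounts. Cenpm, of the inner kinetochore, changed by -0.46. Cenpa, the histone variant that marks the centromere and the gene with the highest level of the group, had no call at 51.0 and 56.5 against 67.3 and 61.9 (interval -0.46 to -0.06). Cenpk (-0.40, measured at FPKM 3.47 to 5.86), the large coiled-coil gene Cenpf (-0.22) and the motor gene Cenpe (-0.13) had none either. The calls of Cenpn and Spc25 held in each of the 4 fits that left out a library. The other 4 were lost in at least 1 of them, at log2 fold changes between -0.56 and -0.37.

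In the spindle checkpoint group, 3 of 5 genes were lower. Mad2l1, whose protein binds and inhibits CDC20, stood at 20.98 and 23.3 in the BAC line and at 30.2 and 30.1 in the knock-in line, 1.36-fold lower (SE 0.0855 on a log2 fold change of -0.43, limma adjusted p = 0.0113). The kinase genes Bub1 (-0.40, limma adjusted p = 0.0498) and Ttk (-0.36, limma adjusted p = 0.0481) were just under the threshold. Bub1 stood at 7.97 and 9.05 against 10.5 and 12.5, and Ttk at 9.63 and 8.18 against 11.7 and 11.8. Bub1 and Ttk also had no call without the filter on low values, under each of 3 rescalings and without the trend and robust fit, and Ttk had none with the replicate block. Their log2 fold changes were between -0.40 and -0.33 in those fits. Bub1b, which encodes BUBR1, had no call (-0.23). Bub3, the most abundant transcript of the group, had overlapping lines at 61.0 and 73.1 against 71.5 and 67.8 (interval -0.29 to 0.17). All 3 calls were lost in at least 2 fits that left out a library, at log2 fold changes between -0.51 and -0.26.

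Around the APC/C, 2 of 5 genes were lower and 3 had no call. Ube2c, the ubiquitin-conjugating enzyme of the complex and the member with the highest FPKM of all, stood at 128 and 122 in the BAC line and at 205 and 192 in the knock-in line. It was 1.59-fold lower in Six2TGC, at 125 ± 4.33 against 199 ± 8.99 (means ± SD, n = 2 each). The log2 fold change was -0.66 with an SE of 0.0743 (limma adjusted p = 1.05e-03). Its exons overlap those of Tnnc2 on the other strand, which was low and went the other way, at 1.79 and 1.41 against 0.747 and 0.742. Pttg1, which encodes securin, stood at 23.0 and 26.3 against 33.8 and 37.6 (-0.52, limma adjusted p = 8.70e-03). The activator genes had no call. Cdc20, the activator used in mitosis, stood at 103 and 107 against 116 and 108 (interval -0.27 to 0.08). Fzr1, which encodes the late activator CDH1, had overlapping lines at 62.5 and 65.5 against 68.0 and 60.2 (interval -0.20 to 0.20). Separase, encoded by Espl1, had no call either (-0.22). The Ube2c call held in each of the 4 fits that left out a library, and that of Pttg1 was lost without Six2Cre replicate 1 (-0.59) and without Six2Cre replicate 2 (-0.44).

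Among the kinesin motors, 7 of 10 genes were lower and 3 had no call. Kif20b, a motor of late mitosis, was measured at a low level, 4.46 and 4.41 in the BAC line and 6.31 and 6.72 in the knock-in line (SE 0.118 on a log2 fold change of -0.47, limma adjusted p = 0.0273). Kif23, the motor of the central spindle, stood at 17.4 and 17.2 against 25.0 and 23.2 (-0.46, limma adjusted p = 8.59e-03). Kif15, a partner of KIF11 in keeping the spindle bipolar, stood at 8.96 and 9.14 against 11.8 and 13.3 (-0.42, limma adjusted p = 0.0234). The chromosome-arm motor Kif22 had the highest level of the group, at 29.3 and 34.0 against 40.4 and 42.6 (-0.38, limma adjusted p = 0.0230). The microtubule depolymerase Kif2c (-0.37), the pole-separating motor Kif11 (-0.34) and the cytokinesis motor Kif20a (-0.31) were the other lower genes. Kif4 (-0.32), the minus-end motor Kifc1 (-0.29) and Kif18a (-0.19) had no call. Kif4 is the single X-linked member, and stood at 8.22 in the Xist-low library, Six2TGC replicate 1, and at 9.45, 11.1 and 11.5 in the others. Without that library the log2 fold change of Kif4 was -0.23 (limma adjusted p = 0.181, and 0.0408 to 0.273 over all its alternatives, the lowest without Six2TGC replicate 2 at -0.42). None of the 7 calls held in all 4 fits that left out a library, and those of Kif20a and Kif20b held in none. The log2 fold changes where a call was lost lay between -0.51 and -0.23, and Kif20a was also without a call under 5 of 8 other settings.

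Spindle assembly and cytokinesis genes were lower in 4 of 6 cases. Nusap1, a microtubule-binding protein of the spindle, stood at 16.3 and 16.05 in the BAC line and at 23.0 and 25.9 in the knock-in line, 1.51-fold lower (SE 0.0914 on a log2 fold change of -0.57, limma adjusted p = 4.97e-03). Its exons overlap those of the centromere gene Oip5 on the other strand, which was lower too (-0.57), and without strand the reads of this pair cannot be told apart. Ect2, which activates RHOA at the division plane, stood at 9.11 and 10.7 against 13.2 and 15.3 (-0.48, limma adjusted p = 0.0235). Prc1, which bundles midzone microtubules, stood at 21.6 and 23.4 against 29.2 and 31.9 (-0.42, limma adjusted p = 0.0127). Tpx2, the activator of Aurora A, was just under the threshold (-0.29, limma adjusted p = 0.0494) and lost its call under 6 of 8 other settings, at -0.29 to -0.26. Racgap1, the partner of KIF23 and the gene with the highest level of the group, had no call at 37.5 and 38.7 against 45.4 and 43.8 (interval -0.39 to -0.05), nor had Anln (-0.28), the scaffold of the contractile ring. All 4 calls were lost in at least 1 fit that left out a library, at log2 fold changes between -0.58 and -0.20.

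Genes of chromosome structure had the largest share of calls among the 9 role groups, with 6 of 7 lower, a ranking that was not tested. All 6 were also lower in the authors' deposited table at a q-value under 0.05. All 5 condensin genes were among them. Ncapd2, which encodes a regulatory subunit of condensin I, showed the largest difference of all members. It stood at 35.4 and 40.4 in the BAC line and at 61.8 and 67.0 in the knock-in line, 1.70-fold lower at 37.9 ± 3.53 against 64.4 ± 3.65 (means ± SD, n = 2 each). The log2 fold change was -0.75 with an SE of 0.0908 (limma adjusted p = 1.41e-03). Ncapg, another condensin I subunit, stood at 5.61 and 7.74 against 10.6 and 12.0 (-0.69, limma adjusted p = 0.0168). Smc4, an ATPase core subunit, stood at 24.0 and 26.0 against 35.3 and 37.2 (-0.52, limma adjusted p = 4.55e-03). Ncaph (-0.47) and Smc2 (-0.42) followed. Top2a, the topoisomerase of chromosome condensation and the gene with the highest level of the group, stood at 54.9 and 61.0 against 74.0 and 80.6 (-0.41, limma adjusted p = 0.0136). The proliferation marker Mki67 had no call, at 34.3 and 37.9 against 39.5 and 43.2 (interval -0.40 to 0.01). The Ncapd2 call held in each of the 4 fits that left out a library, and the other 5 were lost in at least 1, at log2 fold changes between -0.77 and -0.34.

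The transcription factor genes that drive this set had no call. Mybl2, which encodes B-MYB, stood at 8.26 and 9.26 in the BAC line and at 10.8 and 11.4 in the knock-in line (log2 fold change -0.31, limma adjusted p = 0.0687). Foxm1 stood at 17.7 and 20.6 against 22.3 and 21.7 (-0.19, limma adjusted p = 0.188). Neither pair of lines overlapped, but the intervals of -0.55 to -0.07 and -0.42 to 0.03 also hold small differences.

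**Figure D2:**
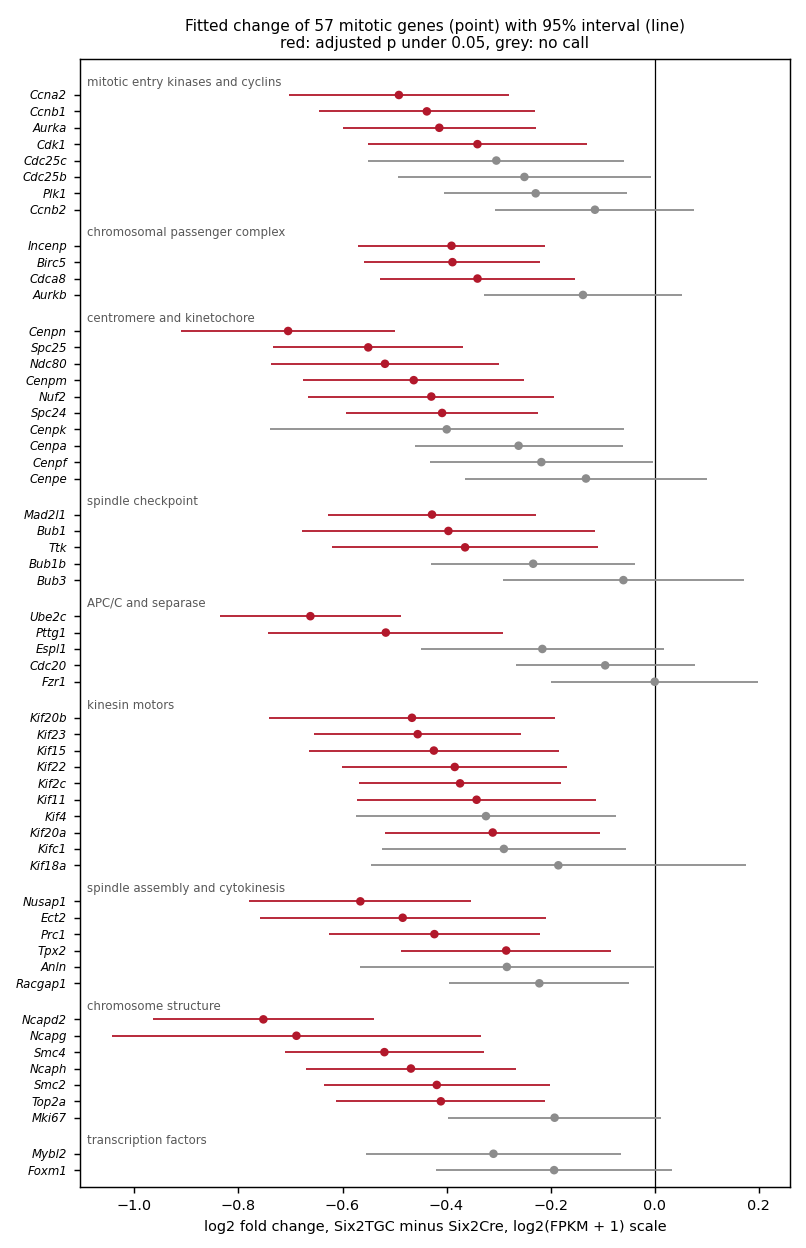
Fitted log2 fold change (Six2TGC minus Six2Cre, log2(FPKM + 1) scale) of each of the 57 mitotic genes with its 95% interval, grouped by role and ordered by size, in red for the 35 genes with an adjusted p under 0.05 and in grey for the 22 without a call. All points but that of Fzr1 lie left of 0, and Ncapd2 is farthest at -0.75.

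The 22 genes without a call were not shown to be alike in the lines. In 12 of them the 95% interval, which is not adjusted for the number of genes, lay wholly below 0, and the widest reached to -0.74. The authors' deposited table called 15 of the 57 members lower at a q-value under 0.05 and 0 higher, which is 26.3%, against 6.52% lower and 6.94% higher among its 12158 tested genes. All 15 were among the 35 called here. They were Ccna2, Cenpn, Ndc80, Spc25, Ube2c, Kif20b, Kif23, Nusap1, Ect2 and 5 condensin genes with Top2a.

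Calls were lost when a library was left out. The 35 lower members became 23 without Six2TGC replicate 1 (22 of them shared), 35 without Six2TGC replicate 2, 8 without Six2Cre replicate 1 and 5 without Six2Cre replicate 2. Calls over all tested genes, counted in either direction, were fewer in each of these fits than in the reported one. The share of all tested genes called lower fell too, so member counts in these fits cannot be set against 13.5%. The median log2 fold change of the members stayed between -0.43 and -0.34 in these fits, and 55 to 57 of 57 members were below 0. The fit without Six2TGC replicate 1 holds the libraries with high Xist alone, and its member median was -0.35. Without Six2TGC replicate 2 the called members were not the same, as Kif20a, Kif20b and Ttk lost their call and Cenpa, Kif4 and Kifc1 gained one. Cenpn, Spc25, Ube2c and Ncapd2 were called in all 4 fits. The deposited table lists these genes on mm10 with Cenpn at chr8:116921740-116941503, Spc25 at chr2:69193895-69206213, Ube2c at chr2:164769929-164772902 and Ncapd2 at chr6:125168007-125191586.

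**Figure D3:**
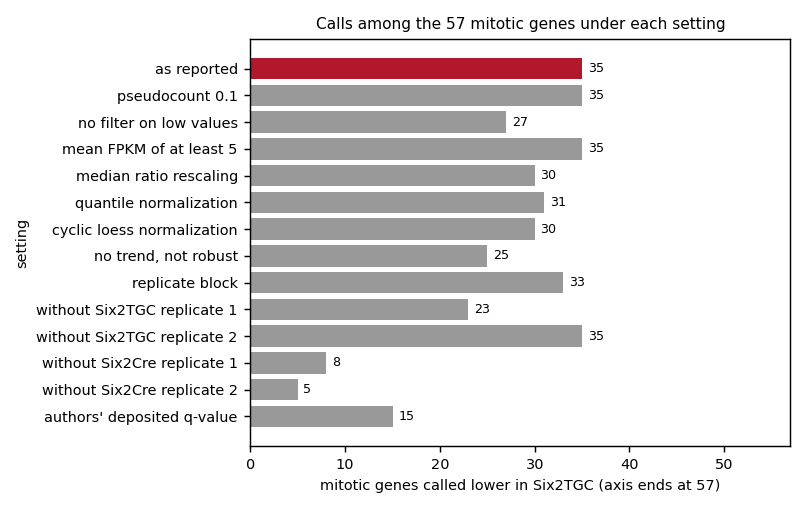
Number of the 57 mitotic genes called lower in Six2TGC (x axis, from 0 to 57) in the reported fit and under each other setting. The bars run from 35 as reported to 5 without Six2Cre replicate 2, and the authors' deposited q-values give 15.

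Genes of the same machinery outside the 57 were counted in lists chosen by role, also with earlier results of these data known. Over all tested genes, 13.5% were lower and 10.8% higher. Of 19 other mitotic entry and exit genes, 7 were lower (36.8%) and 0 higher, with a median log2 fold change of -0.20. Cdca3, which encodes a trigger of WEE1 degradation, stood at 29.6 and 27.2 in Six2TGC against 63.7 and 57.6 in Six2Cre (-1.07, limma adjusted p = 2.34e-04). That estimate lies beyond those of the 57. The phosphatase gene Cdkn3 (-0.76) and Melk (-0.45) were also lower. Of 32 other kinetochore and centromere genes, 15 were lower (46.9%) and 0 higher, with a median of -0.33. They were led by Cenpp (-0.69), Ska2 (-0.65) and Cenpl (-0.59).

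Of 15 genes for the subunits of the APC/C and its ubiquitin-conjugating enzyme UBE2S, 2 were lower and 0 higher, and the median was -0.04. The share lower, 13.3%, was close to the 13.5% over all tested genes. The lower ones were Ube2s, at 112 and 125 against 186 and 167 (-0.57, limma adjusted p = 4.27e-03), and the small subunit gene Cdc26, at 42.3 and 41.3 against 57.1 and 68.4 (-0.57, limma adjusted p = 6.27e-03). Of 34 other spindle and cytokinesis genes, 7 were lower (20.6%) and 0 higher (median -0.12). They were led by Cep55 (-0.58), Troap (-0.55) and Haus3 (-0.42). Of 17 cohesin and condensin II genes, 5 were lower (29.4%) and 0 higher (median -0.19). They were led by the cohesin acetyltransferase gene Esco2 (-0.74), Cdca5 (-0.64), which encodes sororin, and Sgol1 (-0.63), which encodes shugoshin.

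Of 19 E2F and DREAM complex genes, 4 were lower (21.1%) and 0 higher, with a median of -0.16. E2f8, a repressor of the cycle, stood at 10.5 and 11.1 against 18.2 and 18.996 (-0.73, limma adjusted p = 1.53e-03), followed by E2f2 (-0.57) and the MuvB gene Lin52 (-0.49). Among 30 G1 and S phase regulators calls went in both directions, with 8 lower (26.7%) and 3 higher and a median of -0.14. Over all tested genes, 10.8% were higher. The lower ones were Rrm2 (-0.64), Prim1 (-0.57), Ccne1 (-0.52), Pola1 (-0.52), Gins2 (-0.46), Cdkn1b (-0.45), Gins1 (-0.36) and Cdk2 (-0.34). Cdkn1b encodes a CDK inhibitor, as does Cdkn1a among the higher ones. The CDK inhibitor gene Cdkn1a stood at 33.9 and 36.8 in the BAC line and at 12.6 and 13.1 in the knock-in line (1.39, limma adjusted p = 7.79e-05). Ccnd1, a D-type cyclin of G1, stood at 63.9 and 53.0 against 28.4 and 27.9 (1.02, limma adjusted p = 5.07e-04), and Cdk6 at 1.65 and 2.01 against 0.564 and 0.352 (0.96, limma adjusted p = 9.19e-03). The difference between these lists and the mitotic genes was not tested.

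Facts of the libraries moved with the lines beside these results. The FPKM values summed to 481665 to 483087 in Six2TGC and to 537366 to 549971 in Six2Cre, and depth estimated from low values was 0.953, 1.85 and 1.88 of that of Six2TGC replicate 1 in Six2TGC replicate 2 and Six2Cre replicates 1 and 2. Beside the marker counts that follow, 13.5% of all tested genes were lower and 10.8% higher. All 10 nephron progenitor markers were present, with 6 lower, 1 higher in Six2TGC and 3 without a call. The higher one was Six2, at 749 and 816 in Six2TGC against 545 and 533 in Six2Cre (log2 fold change 0.54). The largest differences among the lower ones were those of Cited1, at 109 and 94.6 against 907 and 878 (-3.12), and Meox1, at 20.6 and 14.2 against 62.4 and 64.3 (-1.83). Of 8 markers of the early differentiating nephron, 6 were higher and 2 lower. Their summed FPKM was 290.7 to 295.5 in Six2TGC against 122.3 to 125.3 in Six2Cre. Ccnd1, already counted among the G1 and S phase regulators, is 1 of the 6 and part of these sums. Of 7 stromal markers, 2 were higher and 1 lower, at a summed FPKM of 119.5 to 142.0 against 77.6 to 108.3. The summed levels of 6 endothelial, 8 blood and immune and 7 ureteric bud markers were at most 16.9, 24.7 and 8.59 in any library, and some of their members differed between the lines. Among endothelial markers Plvap was higher in Six2TGC, at 15.6 and 9.52 against 5.97 and 4.88, while the other 5 were too low to be tested. Of these, Tie1 stood at 0.137 and 0.0359 against 0.740 and 1.31, and Cdh5 at 0.267 and 0.105 against 0.918 and 1.12. Among blood and immune markers Cd68 was lower, at 7.32 and 8.01 against 19.2 and 18.1, and Hbb-bt was higher, at 1.76 and 2.64 against 0.700 and 0.558, while Ptprc was at most 0.0495. Among ureteric bud markers Krt8 was lower, at 0.842 and 1.1996 against 2.49 and 3.20, and Wnt11 was higher, at 4.84 and 3.87 against 1.23 and 0.889. No marker in these lists was at 0 in all 4 libraries. The part of cell makeup, depth or any batch in the lower mitotic genes was not tested, and since the labels name no batch, line and batch could not be separated.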

How the data were processed

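Members and gene lists were chosen with earlier results of these data known. Reads were aligned with HISAT2 and compared with Cuffdiff on mm10, per the submitters' processing notes. Their versions, the annotation, trimming and strand use are not known here. The authors deposited an FPKM value per gene and library, FPKM means per line, and a p-value and q-value per gene of their own comparison. The table has 24339 genes, and 1 line is not used here. Table starts count from 0 and were raised by 1.

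Where FPKM averaged 1 or more (11917 genes), log2(FPKM + 1) was fitted by limma 3.58.1 (R 4.3.3), with trend and robust empirical Bayes, two-sided, adjusted by Benjamini-Hochberg over all of them. The fit was tested on simulated data in which 200 of 11917 genes changed, fewer than the 2900 called here. There it called 3.88% of log2 changes of 0.5, 74.0% of those of 1 and 97.7% of those of 2. Of the simulated calls, 3.85% were false. Spreads were drawn from the fit itself and fewer genes changed, so these rates need not hold for the calls here. Effects are Six2TGC minus Six2Cre. Adding 1 makes fold changes of low genes too small. Folds are ratios of mean FPKM. No values above 0 were equal between libraries. Depth is unknown, and its ratios between libraries were estimated from 1044 genes at or under 0.4 in every library, by the most frequent ratio (226, 117 and 97 genes in the peak).

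In full were named, per role group, up to 3 called members with the largest change, the one with the highest mean FPKM and any called higher, and in other lists up to 3 called genes. Other genes were named after their values were seen. Exons of 19 members overlap those of another gene in GENCODE M21, 10 of them among the called, and 4 members have a pseudogene of their name, so their reads may be shared. Another gene has the same listed locus for 14 members. Promoter windows are from RefSeq, GRCm38.p6. Alternatives were pseudocount, filter, rescaling, moderation, a replicate block, leaving out each library, and the authors' q-values.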

Additional observations from a re-analysis of the deposited data

How the results depend on the processing

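With the pseudocount at 0.1, no filter, a mean FPKM of at least 5, median ratio rescaling, quantile or cyclic loess normalization, and no trend or robust fit, 25 to 35 members were lower and 0 higher, and the member median lay between -0.39 and -0.35. Of the 35 calls, 25 held in all 8 settings that kept 4 libraries. The authors' deposited q-values gave 15 lower members and 1637 genes called over the table, against 35 and 2900. Without 1 library, 5 to 35 members were lower, 953 to 2736 genes were called and the member median was -0.43 to -0.34. Leaving out a library leaves its line with 1, assumed to vary like the other line; the cause of the lost calls was not tested. Bub3 changed sign without Six2TGC replicate 1 (0.07; range over libraries left out -0.19 to 0.07), and Fzr1 without Six2TGC replicate 2 (-0.03) and without Six2Cre replicate 2 (-0.09; range -0.09 to 0.09), none with a call. Over single members and settings, 107 calls were lost and 4 gained. Of 682 results, 568 kept both their sign and their call status, and 3 changed sign. Rescaling moved the median of all genes from -0.03 to between -0.01 and 0, and turned the majority of calls over the table from lower to higher, with 1413 lower and 1434 higher under median ratio rescaling against 1614 and 1286. The labels do not say whether replicate numbers pair the libraries. The deviations of same-numbered libraries had a correlation of -0.04 over tested genes, which cannot decide this with 2 libraries a line. With the replicate block 33 members were lower, the median was -0.38 and 2713 genes were called. Cenpk and Kif18a have no value at a mean FPKM of at least 5.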

Other observations

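FPKM corrects for gene length, so levels of partners in 1 complex can be set side by side. Within the NDC80 complex, the genes of each dimer had like levels in every library. The FPKM of Spc25 over that of Spc24 was 1.00 and 1.01 in Six2TGC and 1.12 and 1.11 in Six2Cre. That of Ndc80 over Nuf2 was 1.13 and 1.03 against 1.15 and 1.15. Across the dimers the levels differed, with Spc25 at 2.80 and 3.02 times the FPKM of Ndc80 in Six2TGC and at 2.98 and 2.85 times in Six2Cre. Smc4 stood at 1.87 and 1.95 times the FPKM of its partner Smc2 against 2.07 and 1.99 times. Of these ratios, that across the dimers overlapped between the lines, and the others were lower in both Six2TGC libraries.

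Ncapd2 stood at 1.78 and 2.00 times the FPKM of Ncaph in Six2TGC and at 2.32 and 2.26 times in Six2Cre, with no overlap. Its ratio to Ncapg overlapped, at 6.31 and 5.22 against 5.84 and 5.60. Ube2c stood at 1.24 and 1.15 times the FPKM of Cdc20 in Six2TGC and at 1.77 and 1.77 times in Six2Cre. Ccnb1 stood at 0.598 and 0.621 times the FPKM of Ccnb2 in Six2TGC and at 0.732 and 0.809 times in Six2Cre. Birc5 stood at 1.56 and 1.44 times the FPKM of Aurkb against 1.77 and 1.79 times. Cdc20 stood at 1.65 and 1.63 times the FPKM of Fzr1 against 1.70 and 1.80 times. The pairs were chosen after their values were seen, and the differences of the ratios were not tested.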
